A study of Equus caballus with 18 samples.

Results

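Sarcomeric myosin heavy chains were examined as 7 genes (MYH2, MYH7, MYH7B, MYH3, MYH8, MYH13 and MYH15), each read by the probeset whose platform symbol was exactly that gene. Every gene had 1 such probeset, so 7 of the 30559 probesets of the array were members. Probesets that named MYH1, MYH4 and MYH2 together (2 probesets) were kept apart, and MYH1 and MYH4 were named by no probeset alone. RNA from superficial gluteal muscle biopsies of exercised adult Thoroughbred horses (2 to 6 years of age over the whole study) was hybridized to 18 equine gene arrays, 1 array per biopsy. In the low dose regimen, 5 horses (L1 to L5) were sampled untreated at baseline and again on day 14 of oral clenbuterol at 0.8 μg/kg BID (2 doses a day), a dose planned for 30 days. In the escalating regimen, 4 other horses (E1 to E4) were sampled untreated at baseline and again on day 28, after 3 days each at 0.8, 1.6 and 2.4 μg/kg BID and then 3.2 μg/kg BID, a step planned for 21 days. All horses were kept in race training before and during the study, no undosed horses were among the arrays of the later days, and each horse was its own control, so the drug and the passage of time cannot be told apart.

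Myosin heavy chains are the motor proteins of the thick filament, and the isoform that a muscle fiber makes largely sets its speed of contraction. MYH7 is the slow chain of type I fibers, MYH2 the fast oxidative chain of type IIA fibers, and MYH1 and MYH4 the chains of type IIX and type IIB fibers. MYH3 and MYH8 are the embryonic and neonatal chains, which adult limb muscle makes again when it regenerates, while MYH7B, MYH13 and MYH15 are ancient or specialized chains known from eye muscles, muscle spindles and the heart. Clenbuterol is a β-adrenergic agonist given to horses to open the airways, and in rodents drugs of this class are known to enlarge muscle and to favour the faster chains.

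Values are log2 signals, so a difference of 1 is a 2-fold difference in signal. Array medians lay at 2.5 to 2.69 and 2.42 to 2.74 (low dose, baseline and day 14) and at 4.06 to 4.22 and 4.45 to 4.5 (escalating dose, baseline and day 28). Levels were therefore compared only within a regimen and only for the same probeset. The 12 general markers of skeletal muscle, such as ACTA1 and CKM, summed to a signal of 30144 to 32783 and 25182 to 26657 (escalating dose, baseline and day 28), and to 7189 to 20404 and 3946 to 18244 (low dose, baseline and day 14). At the escalating dose baseline the means of ACTA1 and CKM were 11.73 and 12.76, where the highest values of the arrays were 13.35 to 13.56. No other tissue was arrayed, so these sums do not test the label of the tissue. At the escalating dose 5 of the 12 were called lower (limma adjusted p under 0.05) and 0 higher, beside 20.2% lower over all probesets. The 5 were MB (log2 change -1.53), LDB3 (-1.20), TCAP (-0.95), RYR1 (-0.80) and MYOT (-0.60). ACTA1 (0.15) and CKM (0.03) were not called. In a biopsy, fewer fibers of a type and less RNA per fiber cannot be told apart.

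**Figure D1:**
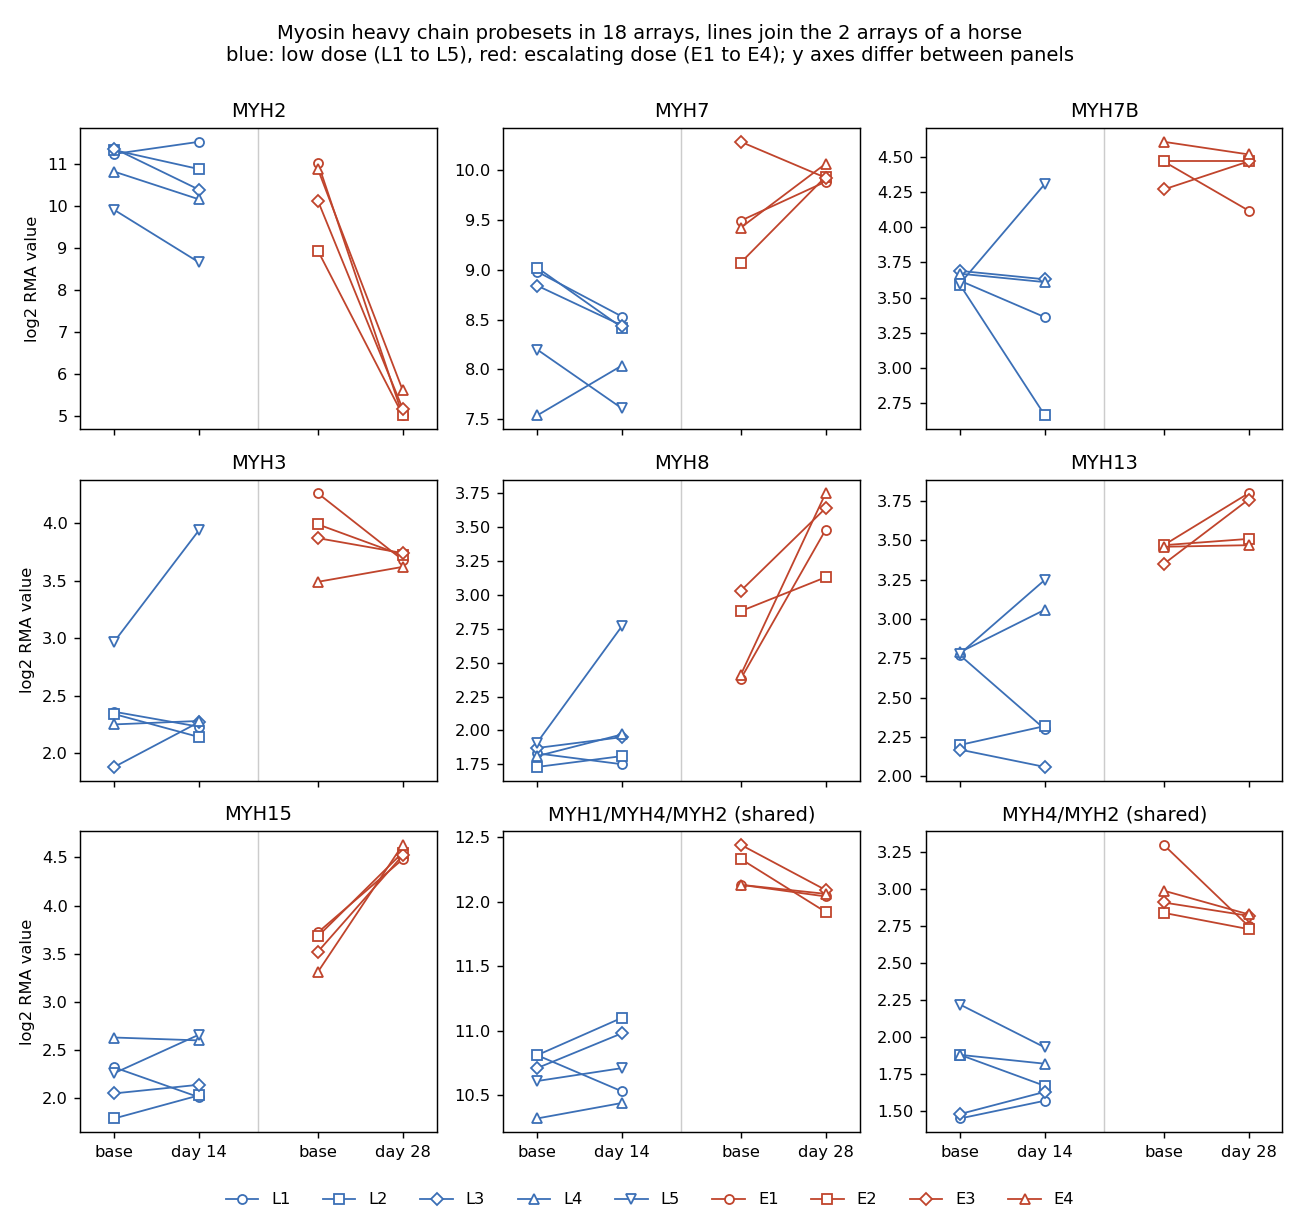
Log2 value (y axis) of the 7 myosin heavy chain probesets and the 2 shared probesets at baseline and on the drug (x axis), 1 panel per probeset, with a line for each horse (blue, low dose; red, escalating dose; y axes differ). MYH2 fell in all 4 horses of the escalating dose to between 5.01 and 5.61, while the shared MYH1/MYH4/MYH2 probeset stayed between 11.92 and 12.44.

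The escalating dose was marked by the loss of MYH2 signal. MYH2 (probeset 14968847) was at 11.02, 8.93, 10.12 and 10.87 in E1 to E4 at baseline and at 5.01, 5.02, 5.17 and 5.61 on day 28. The groups did not overlap, and the highest value on day 28 was still more than 3 log2 units under the lowest baseline value. The mean went from 10.2 ± 0.955 to 5.20 ± 0.281 (SD, n = 4 horses), a log2 change of -5.03 (standard error 0.314, 95% interval -5.78 to -4.29, limma adjusted p = 7.93e-05), which is 32.7-fold lower with an interval of 19.6 to 54.8. By horse, MYH2 was 64.4-, 15.03-, 30.9- and 38.3-fold lower. No other probeset of the array fell as far, and the next in order, which carried no gene symbol, changed by -4.46.

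The place of MYH2 within its own array, which does not move when a whole array is rescaled, fell as well. At baseline 97.95% to 99.6% of the probesets of the array had a lower value than MYH2, and on day 28 this share was 65.4%, 65.6%, 69.55% and 79.97% in E1 to E4. MYH2 thus left the brightest few percent of the array in every horse.

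**Figure D2:**
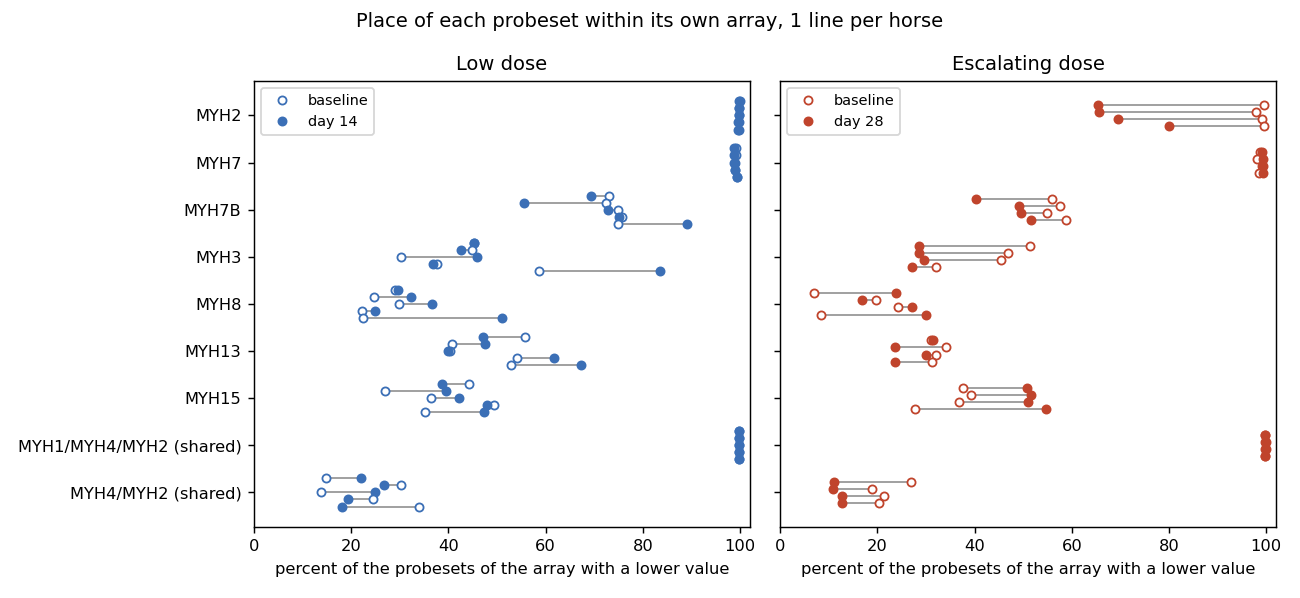
Percent of the probesets of the same array with a lower value (x axis), for each myosin heavy chain probeset (y axis), with open circles for baseline, filled circles for the drug and 1 line per horse. MYH2 moved from 97.95% or above to between 65.4% and 79.97% at the escalating dose, and MYH7 and the shared MYH1/MYH4/MYH2 probeset stayed above 98%.

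The probesets shared between fast chains did not follow MYH2. The probeset named for MYH1, MYH4 and MYH2 together (14968837) was at 12.13, 12.33, 12.44 and 12.13 at baseline and at 12.04, 11.92, 12.09 and 12.06 on day 28. It was lower in 4 of 4 horses and its groups did not overlap, but the log2 change of -0.23 (standard error 0.143) was not called (limma adjusted p = 0.240), and the probeset kept a place above 99.8% of its array throughout. The other shared probeset, named for MYH4 and MYH2 (14968833), was dim, at 3.30, 2.84, 2.91 and 2.99 at baseline and at 2.75, 2.73, 2.82 and 2.83 on day 28, and changed by -0.23 (standard error 0.149, adjusted p = 0.264). Only 10.8% to 12.8% of the probesets of the day 28 arrays were dimmer. Which of the named genes gave the signal of a shared probeset cannot be read from the array. The authors state that horses do not express the type IIB gene in skeletal muscle, which was not tested here. When each array was centred on its median, both shared probesets were called lower (-0.55 for each, adjusted p = 0.0245 and 0.0169). The dim one was also called lower after quantile normalization (-0.53, adjusted p = 0.0241) and cyclic loess scaling (-0.46, adjusted p = 0.0405), where the bright one lay at -0.32 and 0.25 and was not called (adjusted p = 0.143 and 0.168).

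MYH7, the slow chain (probeset 14948202), was at 9.49, 9.07, 10.28 and 9.42 in E1 to E4 at baseline and at 9.88, 9.93, 9.92 and 10.06 on day 28. It was higher in 3 of 4 horses and lower in E3, the horse with the highest baseline, and the groups overlapped. The log2 change of 0.38 (standard error 0.218, 95% interval -0.13 to 0.90) was not called (limma adjusted p = 0.202). Without E3 it was 0.63 (adjusted p = 0.0353), and after cyclic loess scaling of the arrays it was 1.37 (adjusted p = 0.00274), so the call for MYH7 depended on 1 horse and on the scaling. The spread of MYH7 between horses was smaller on day 28, a difference that was not tested. Its SD over the 4 horses went from 0.511, larger than that of 89.8% of all probesets, to 0.0780, larger than that of 5.31%, while the median SD over all probesets was 0.226 at baseline and 0.249 on day 28. This was not particular to MYH7. The SD also went down for MYH3 (0.320 to 0.0529), MYH15 (0.186 to 0.0635), MYH2, MYH8 and both shared probesets. It went up for MYH7B (0.140 to 0.185) and MYH13 (0.0585 to 0.169).

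The changes of MYH7 and MYH2 were set against each other in each horse, as the log2 change of MYH7 minus that of MYH2, a quantity that does not move when a whole array is shifted. It was 6.40, 4.77, 4.59 and 5.90 in E1 to E4, with a mean of 5.42 ± 0.876 (SD, n = 4). It was above 0 in all 4 horses, most of it from the fall of MYH2, and the shared MYH1/MYH4/MYH2 probeset does not enter it. The exact sign-flip permutation test gave p = 0.125 (two-sided), the smallest value that 4 horses allow. In L1 to L5 the difference was -0.74, -0.15, 0.58, 1.16 and 0.66, with a mean of 0.30 ± 0.747 (SD, n = 5) and exact permutation p = 0.5, where 0.0625 was the smallest possible. The regimens did not overlap, and their means differed by 5.11 (exact permutation p = 0.00794, two-sided, n = 9 horses, the smallest value these group sizes allow).

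**Figure D3:**
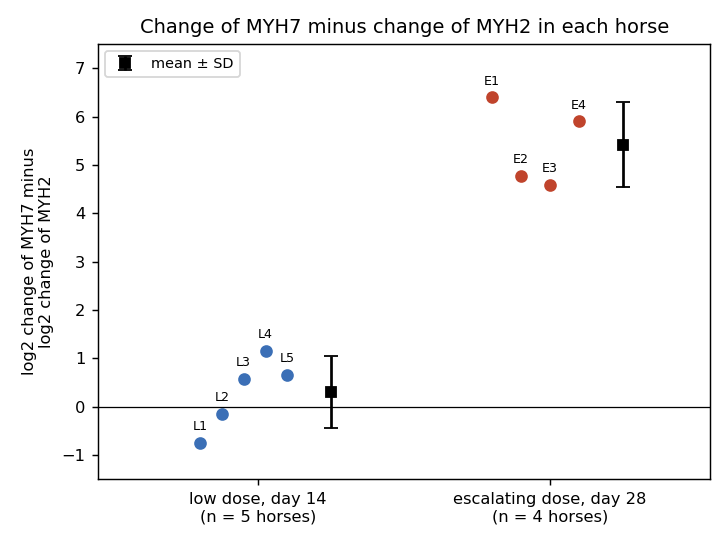
Log2 change of MYH7 minus log2 change of MYH2 (y axis), 1 point per horse, for the low dose and the escalating dose (x axis), with squares and bars for mean ± SD. The 4 horses of the escalating dose lie between 4.59 and 6.40 and the 5 horses of the low dose between -0.74 and 1.16.

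Neonatal MYH8 (probeset 14968818) rose at the escalating dose, from a low level. It was at 2.38, 2.88, 3.03 and 2.41 in E1 to E4 at baseline and at 3.48, 3.13, 3.64 and 3.75 on day 28. The groups did not overlap, and the log2 change was 0.83 (standard error 0.207, 95% interval 0.34 to 1.31, limma adjusted p = 0.0153), higher in 4 of 4 horses. All of these values lay under the median of their array, and 17.6% of all probesets rose by more. The call was lost after quantile normalization (0.50, adjusted p = 0.138), median centring (0.50, adjusted p = 0.107), cyclic loess scaling (0.55, adjusted p = 0.0916), and without E1 (0.73, adjusted p = 0.0596) or without E4 (0.65, adjusted p = 0.0580). In E2 the place of MYH8 within the array went from 19.8% to 16.8%, while it moved up in the other 3 horses.

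Embryonic MYH3 (probeset 14968863) was not called at the escalating dose. Its values were 4.26, 3.99, 3.87 and 3.49 at baseline and 3.68, 3.72, 3.74 and 3.62 on day 28. The groups overlapped, and the log2 change was -0.21 (standard error 0.163, limma adjusted p = 0.337), with 3 of 4 horses lower. Within the arrays MYH3 went from a place of 32.1% to 51.4% to one of 27.1% to 29.5%, down in 4 of 4 horses. It was called lower after quantile normalization (-0.59, adjusted p = 0.0235), median centring (-0.54, adjusted p = 0.0318) and cyclic loess scaling (-0.61, adjusted p = 0.0234).

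MYH15 (probeset 15013285), one of the ancient chains, rose in every horse of the escalating dose. It was at 3.72, 3.68, 3.52 and 3.31 at baseline and at 4.48, 4.55, 4.52 and 4.63 on day 28, with no overlap between the groups. The mean went from 3.56 ± 0.186 to 4.55 ± 0.0635 (SD, n = 4), a log2 change of 0.99 (standard error 0.153, 95% interval 0.63 to 1.35, limma adjusted p = 0.00186). Its place in the array moved from 27.7% to 39.4% at baseline up to 50.8% to 54.8% on day 28, and 14.3% of all probesets rose by more. The change was smaller but still called after quantile normalization (0.63, adjusted p = 0.0180), median centring (adjusted p = 0.0122) and cyclic loess scaling (0.62, adjusted p = 0.0203). E4 had the lowest value at baseline and the highest on day 28.

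The other ancient and specialized chains were not called. MYH7B (probeset 15037525), a slow chain that also carries a muscle microRNA in its gene, was at 4.47, 4.47, 4.27 and 4.61 at baseline and at 4.12, 4.47, 4.47 and 4.52 on day 28, a log2 change of -0.06 (standard error 0.151, 95% interval -0.42 to 0.30, limma adjusted p = 0.784). MYH13 (probeset 14968790), the fast chain of eye muscles, was at 3.47, 3.47, 3.35 and 3.46 at baseline and at 3.8, 3.51, 3.76 and 3.47 on day 28. It was higher in 4 of 4 horses, with 2 of them (E2 and E4) under 0.05 log2 units higher, and the log2 change of 0.20 (standard error 0.147, adjusted p = 0.322) turned to -0.20 after quantile normalization, -0.12 after median centring and -0.19 after cyclic loess scaling, with no call in any of them.

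Of the 7 members, 2 were called higher (MYH8 and MYH15), 1 was called lower (MYH2) and 4 were not called at the escalating dose. Over all probesets of the array, 44.7% were called, 24.5% higher and 20.2% lower, so a count of 3 of 7 was near the background. The same 3 members had baseline and day 28 values that did not overlap, against 24.1% of all probesets that lay higher without overlap and 19.7% that lay lower. The median log2 change was 0.20 over the members and 0.08 over all probesets, 80% of which lay between -1.18 and 1.26. Only MYH2 was outside that range. The median of all probesets was 0.08 as deposited, -0.10 after quantile normalization, -0.24 after median centring and -0.02 after cyclic loess scaling. Calls over all probesets went from 7498 higher and 6164 lower to 5790 and 7321, to 4965 and 10038 and to 6745 and 5643.

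**Figure D4:**
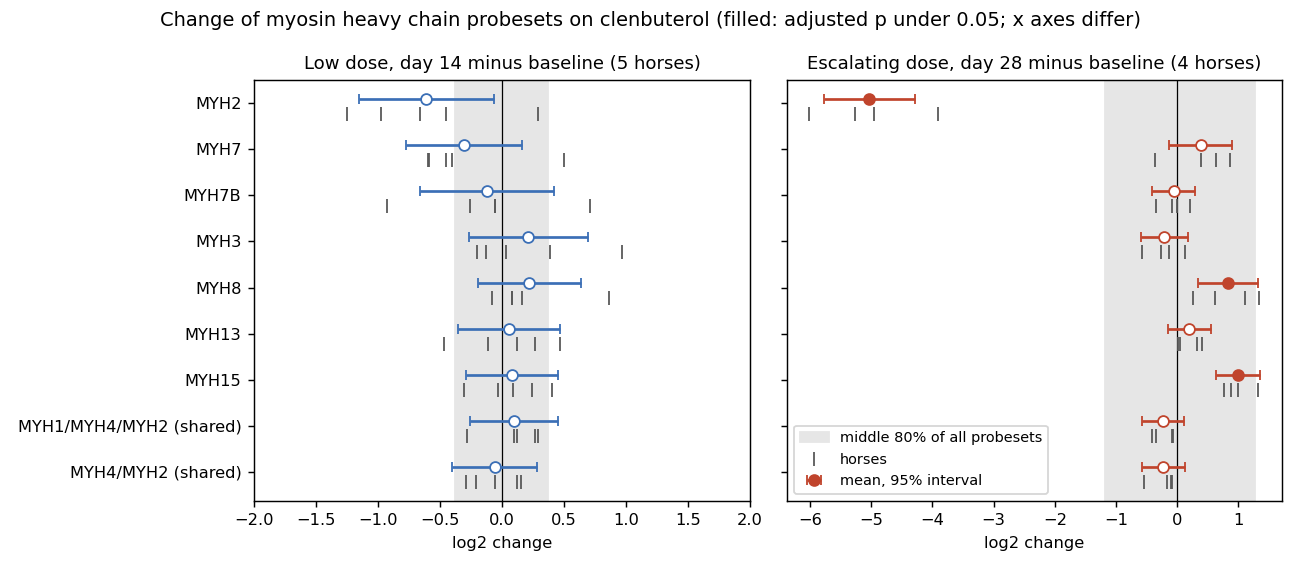
Log2 change from baseline (x axis; the panels have different scales) of each myosin heavy chain probeset (y axis), with circles for the mean, bars for the 95% interval, ticks for single horses and a grey band for the middle 80% of all probesets. MYH2 at the escalating dose (-5.03) is the only member whose mean lies outside the band of its panel there, and no circle is filled (adjusted p under 0.05) at the low dose.

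On day 14 of the low dose, limma called none of the 7 members and none of the 30558 probesets tested (0%). MYH2 was at 11.23, 11.32, 11.36, 10.81 and 9.90 in L1 to L5 at baseline and at 11.52, 10.87, 10.38, 10.15 and 8.65 on day 14. The groups overlapped, with MYH2 lower in 4 of 5 horses and higher in L1. The log2 change was -0.61 (standard error 0.233, 95% interval -1.15 to -0.07, limma adjusted p = 0.539). MYH2 was the only member with an unadjusted p under 0.05, a level that 8.72% of all probesets reached. MYH2 was above 99.6% of the probesets in all 10 low dose arrays, with a lower place on day 14 in 4 of 5 horses. So near the top the place moves little. In L5 a change of -1.25 took it from 99.78% to 99.66%.

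MYH7 was at 8.98, 9.02, 8.84, 7.54 and 8.20 in L1 to L5 at baseline and at 8.53, 8.42, 8.44, 8.04 and 7.61 on day 14. It was lower by 0.40 to 0.60 log2 units in 4 horses and higher by 0.50 in L4, and the mean change of -0.31 (standard error 0.200, limma adjusted p = 0.676) was not called. L4 and L5 had the lowest signal of general muscle markers, 10013 and 7189 at baseline and 12212 and 3946 on day 14, against 16071 to 20404 in the arrays of L1 to L3, and the spread of all values within their arrays was smaller (SD 1.20 to 1.41 against 1.67 to 1.75). The 8 measured markers of skin, such as KRT5, summed to 607, 690 and 831 in L1, L2 and L3 at baseline and to 51.8 to 67.4 in the other 7 arrays of that regimen. The part of either difference in the member values was not tested. Leaving out L4 and L5 together left all 7 members without a call.

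The developmental chains were dim at the low dose. MYH3 was at 2.36, 2.34, 1.88, 2.25 and 2.97 in L1 to L5 at baseline and at 2.23, 2.14, 2.27, 2.28 and 3.94 on day 14. MYH8 was at 1.83, 1.73, 1.87, 1.81 and 1.91 at baseline and at 1.75, 1.81, 1.95, 1.97 and 2.77 on day 14. L5 had the highest value of both chains on day 14, and this was not particular to them, since L5 was also highest that day for MYH7B, MYH13, MYH15 and the non-muscle chain MYH14 (2.85 to 3.92). Neither the change of MYH3 (0.21, standard error 0.206, limma adjusted p = 0.792) nor that of MYH8 (0.22, standard error 0.179, adjusted p = 0.751) was called.

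The low dose changes of MYH7B, MYH13 and MYH15 were small beside the differences between horses. MYH7B was at 3.59 to 3.69 in the 5 horses at baseline, an SD of 0.0439 that was smaller than that of all but 0.147% of the probesets, and spread to 3.36, 2.66, 3.63, 3.61 and 4.31 on day 14 (log2 change -0.12, standard error 0.233, limma adjusted p = 0.912). MYH13 ranged from 2.17 to 2.79 at baseline and from 2.06 to 3.25 on day 14, a change of 0.06 (standard error 0.178, adjusted p = 0.950). MYH15 ranged from 1.79 to 2.63 at baseline and from 2.01 to 2.66 on day 14, a change of 0.08 (standard error 0.159, adjusted p = 0.916). The 95% intervals of the 7 members at the low dose reached 0.37 to 0.54 log2 units to either side. The shared MYH1/MYH4/MYH2 probeset was at 10.81, 10.81, 10.71, 10.32 and 10.61 at baseline and at 10.53, 11.10, 10.98, 10.44 and 10.71 on day 14, a change of 0.10 (standard error 0.152, adjusted p = 0.879), and the MYH4/MYH2 probeset changed by -0.06 (adjusted p = 0.934).

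The changes of the regimens were compared directly, as the change at the escalating dose minus the change at the low dose, in a fit of all 18 arrays. The regimens differed in dose, duration and horses at once, and which of these a difference belongs to cannot be told apart. Of the members, MYH2 was called lower (-4.42, standard error 0.421, limma adjusted p = 3.68e-05) and MYH15 higher (0.91, standard error 0.217, adjusted p = 0.00690). Over all probesets 36.6% were called, 19.7% higher and 16.9% lower, and 45% had an unadjusted p under 0.05, as did 3 of the 7 members. After median centring, quantile normalization and cyclic loess scaling MYH15 was at 0.54, 0.43 and 0.35 and not called (adjusted p = 0.0710, 0.195 and 0.248). MYH8 rose at the escalating dose, but its difference from the low dose was 0.61 (standard error 0.282, 95% interval -0.01 to 1.22, adjusted p = 0.119), and without L5 it was 0.77 and called (adjusted p = 0.0360). MYH7 differed by 0.69 (standard error 0.311, adjusted p = 0.108), and was called after quantile normalization (1.03, adjusted p = 0.0259) and cyclic loess scaling (1.63, adjusted p = 0.00476), without E3 (0.94, adjusted p = 0.0370) and without L4 (0.89, adjusted p = 0.0267). MYH3 (-0.42, adjusted p = 0.265) was called lower after median centring (-0.80, adjusted p = 0.0329) and cyclic loess scaling (-0.98, adjusted p = 0.0174). MYH7B (0.06, adjusted p = 0.899) and MYH13 (0.14, adjusted p = 0.680) were not called under any of these settings.

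Markers of other cells moved with the escalating dose beside the myosin chains. Of the 6 measured adipocyte markers 1 was called lower (FABP4, limma adjusted p = 0.00411), and ADIPOQ was not called (-2.545, adjusted p = 0.0651). The 6 summed to a signal of 2456 and 2596 in the baseline biopsies of E1 and E4, to 243 and 310 in those of E2 and E3, and to 199 to 237 on day 28. E1 and E4 also had the highest MYH2 values at baseline and the 2 largest falls. Without these 2 horses, MYH2 still fell, by 4.43 on the log2 scale (limma adjusted p = 0.00399), and MYH8 was at 0.43 and not called (adjusted p = 0.190). Endothelial markers (7 of 9 called lower) summed to 818 to 1314 at baseline and 379 to 422 on day 28, smooth muscle markers (6 of 9 called lower) to 668 to 813 and 269 to 305, and leukocyte markers (4 of 9 called higher) to 187 to 272 and 411 to 535. Over all probesets 20.2% were called lower and 24.5% higher. The largest leukocyte rise was that of LYZ (2.165), and 2 of the 9 leukocyte markers were called higher after quantile normalization or median centring. The lowest log2 value of any probeset in any array was 0.34, so a marker signal above 0 does not show that its cell type was present. The part of these cells in the member values was not tested.

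Other myosin heavy chains were mostly lower on day 28. The platform name MYHC-ALPHA (probeset 14948184), by its name the alpha chain of the heart and chosen here after its values were seen, was at 6.88, 5.73, 6.42 and 7.08 in E1 to E4 at baseline and at 5.6, 5.55, 4.94 and 5.28 on day 28. The groups did not overlap, and the log2 change was -1.19 (standard error 0.265, limma adjusted p = 0.00947), with E2 at -0.18 and the other horses between -1.80 and -1.28. It was not called after cyclic loess scaling (-0.59, adjusted p = 0.139) or without E1 and E4 together (-0.83, adjusted p = 0.136). On day 14 of the low dose it was lower in 5 of 5 horses (-0.50, adjusted p = 0.503). The smooth muscle chain MYH11 (-1.08, adjusted p = 0.0346) and the non-muscle chains MYH9 (-1.27, adjusted p = 0.00225) and MYH10 (-0.49, adjusted p = 0.0495) were called lower, and MYH14 (0.20, adjusted p = 0.301) was not called. These 4 were the measured ones of 6 listed, and 3 called lower stood beside 20.2% over all probesets. The count was 2 after cyclic loess scaling, and 1 without E2, without E3 or in the paired test of each probeset alone. MYH11 was not called without E2 or without E3 (adjusted p = 0.115 and 0.0821, with a change of -0.67 in the latter), and MYH10 was not called when any 1 of the 4 horses was left out.

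Genes near a member were sought among the 16660 other genes, leaving out symbols that began with LOC or a digit. The genes whose changes lay nearest to those of a member were ranked by the root mean square difference over the 9 horses. For MYH2 these were AK4, a mitochondrial adenylate kinase, BTBD6, an adaptor of a ubiquitin ligase, POLR3K, a subunit of RNA polymerase III, PPIA, a prolyl isomerase, and FXYD1, a regulator of the sodium pump. Their root mean square differences from MYH2 were 1.14, 1.41, 1.44, 1.48 and 1.56 log2 units, where the median gene was at 3.44. Their log2 changes at the escalating dose were -3.71, -3.32, -3.52, -3.15 and -2.94, and no probeset of the array fell as far as MYH2. For MYH7 the nearest were CHRM3, a muscarinic receptor, TMEM210 and PRR30, at 0.27, 0.28 and 0.29 (median gene 0.80), and their changes at the escalating dose (0.46, 0.32 and 0.45) were not called.

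None of the contractile partners of the fast chains fell as far as MYH2, which fell furthest of all probesets. Of 13 genes listed for fast fibers 11 were measured, and 7 were called lower, 0 higher and 4 not, with a median log2 change of -0.58 beside 0.08 over all probesets, of which 20.2% were called lower. All 11 were among the 15280 probesets with the higher means, of which 5662 were called lower when tested alone. Without E2, 3 of the 11 were called lower. MYOZ1, a Z-disc protein of fast fibers, fell by 1.85 (limma adjusted p = 0.000208), TNNC2, the fast troponin C, by 1.15 (adjusted p = 0.00180), TPM1, a tropomyosin, by 0.77 (adjusted p = 0.00557), and MYLK2, the skeletal kinase of myosin light chains, by 1.22 (adjusted p = 0.0119, and 1.10 without E2, adjusted p = 0.0549). After cyclic loess scaling the list had 1 gene higher and 1 lower and a median of 0.16, with TPM1 at 0.16 and MYLK2 at 0.01. Of all 30559 probesets, that scaling left 6745 higher and 5643 lower, with a median of -0.02. MYH2 itself was at -3.79 under that scaling (adjusted p = 0.000647).

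Partners of the slow chain MYH7 were called in either direction. Of 13 listed, 12 were measured, and 2 were called higher, 3 lower and 7 not (median -0.16), a count near the 24.5% higher and 20.2% lower over all probesets. MYL6B, a light chain known from slow muscle, and CSRP3, the muscle LIM protein, fell by 2.56 and 2.38 (limma adjusted p = 9.61e-05 and 0.00243). MYL3, the ventricular and slow light chain, fell by 0.47 (adjusted p = 0.0358), while MYOZ2, the Z-disc counterpart of MYOZ1 in slow fibers, rose by 0.57 (adjusted p = 0.0143) and MYL2, the slow regulatory light chain, rose by 0.53 (adjusted p = 0.0367). MYL2 was added after its values were seen, MYL3 was not called without E1, without E3 or without E4 (-0.46, -0.41 and -0.45), and neither MYOZ2 (0.50) nor MYL2 was called without E1. Median centring left 0 higher and 3 lower (median -0.48), with MYOZ2 not called (adjusted p = 0.202), quantile normalization left 3 higher and 2 lower (median 0.31), and cyclic loess scaling left 9 higher and 2 lower (median 0.75). MYL3 was at 0.25 and 0.76 under the latter pair, so the direction of the slow genes depended on how the arrays were scaled. Of all 30559 probesets, cyclic loess scaling left 6745 higher and 5643 lower (median -0.02).

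Genes that build and maintain the myosin filament were mostly lower. Of 19 listed, 18 were measured, and 12 were called lower, 0 higher and 6 not, with a median of -0.81. Over all probesets 20.2% were called lower. All 18 were among the 15280 probesets with the higher means, where 11 of them and 5662 of all were called lower. The myosin chaperones UNC45B (-1.91, limma adjusted p = 0.000529) and HSP90AA1 (-2.27, adjusted p = 0.000176), the methyltransferase SMYD1, which helps thick filaments assemble (-2.57, adjusted p = 0.000155), the myosin-binding protein MYBPH (-2.51, adjusted p = 0.000106) and the ubiquitin ligase TRIM54 (-2.17, adjusted p = 9.15e-05) fell in 4 of 4 horses. UNC45B and TTN were added after their values were seen. The giant protein titin (TTN), which runs along the thick filament, was at -0.30 (adjusted p = 0.115). After cyclic loess scaling 2 of the 18 were higher and 8 lower (median -0.42), beside 6745 higher and 5643 lower of all 30559 probesets (median -0.02).

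Regulators of fiber type were also mostly lower. Of 31 listed, 28 were measured, and 21 were called lower, 0 higher and 7 not, with a median of -1.06. The share called lower over all probesets was 20.2%. Among the 15280 probesets with the higher means, 22 of the 25 regulators there were called lower, beside 5662 of all. TEAD4 and TEAD1, transcription factors that bind muscle gene promoters, fell by 2.10 and 1.67 (limma adjusted p = 0.000177 and 0.000182), NFATC1, the calcineurin-dependent factor of the slow program, fell by 2.03 (adjusted p = 0.000322), and the serum response factor SRF fell by 1.86 (adjusted p = 0.000373). After cyclic loess scaling 2 were higher and 13 lower (median -0.45), beside 6745 higher and 5643 lower of all 30559 probesets (median -0.02). TEAD1, at -0.47, was not called there (limma adjusted p = 0.0840). Of 14 genes of developing or regenerating muscle, listed beside MYH3 and MYH8, 12 were measured and 1 was called higher, 4 lower and 7 not (median -0.18). The shares over all probesets were 24.5% higher and 20.2% lower. MYF5, a factor of muscle precursor cells, rose by 0.77 (adjusted p = 0.00453), and IGF2, a growth factor (-1.24, adjusted p = 0.000828), VIM, an intermediate filament protein of immature and connective cells (-1.19, adjusted p = 0.0101), and CHRNA1, a subunit of the acetylcholine receptor (-0.69, adjusted p = 0.0155), fell, as did TNNT2, the cardiac and embryonic troponin T, added after its values were seen (-0.49, adjusted p = 0.0272). VIM was not called without E1 and E4 (-0.63, adjusted p = 0.13) or after quantile normalization (-0.50, adjusted p = 0.236) or cyclic loess scaling (0.0375, adjusted p = 0.944). CHRNA1 was not called without E3 or without E4, after quantile normalization (-0.44, adjusted p = 0.0706) or after cyclic loess scaling (-0.13, adjusted p = 0.580). Without E3 or without E4, 2 of the 12 were called lower. At the low dose 0 genes of these 5 lists (11, 12, 18, 28 and 12 measured) were called. An unadjusted p under 0.05 was reached by 5 of them, beside 8.72% of all probesets.

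**Figure D5:**
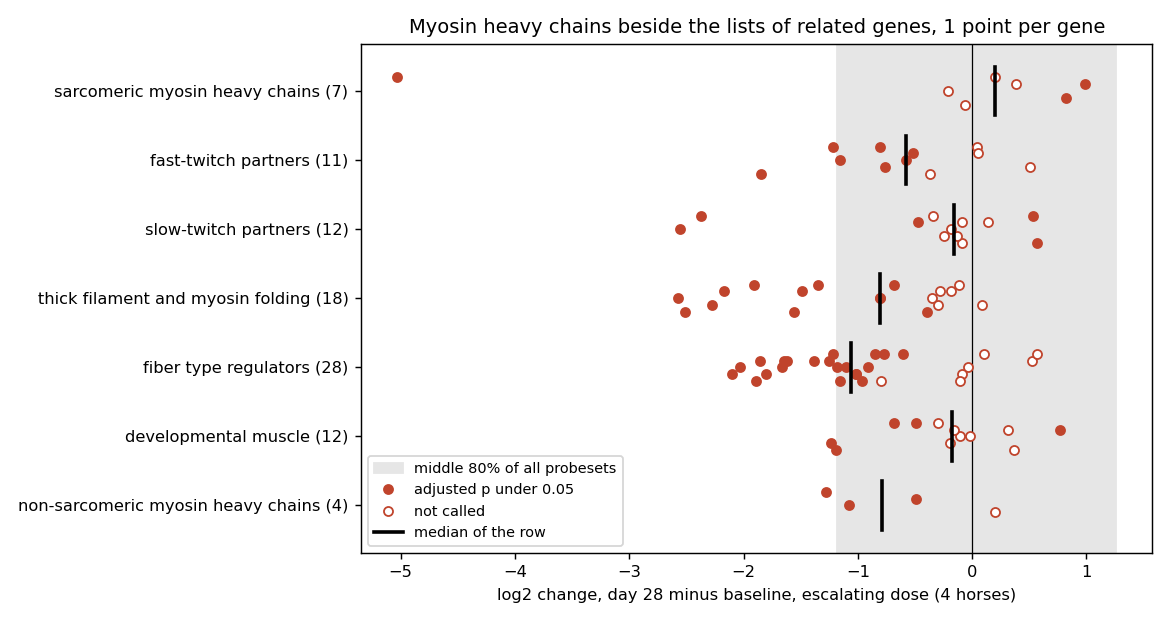
Log2 change from baseline to day 28 of the escalating dose (x axis) of the 7 myosin heavy chains and of the genes in each related list (y axis, number measured in brackets), with filled points for adjusted p under 0.05, black lines for the median of a row and a grey band for the middle 80% of all probesets. MYH2, at -5.03, lies apart from every gene of the lists, whose lowest value is -2.57.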

How the data were processed

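The authors scanned 18 equine gene arrays of muscle RNA and made the deposited log2 values by RMA in Affymetrix Expression Console (version not given in the sources used here), with Transcriptome Analysis Console 3.0 named for their gene filters. Which arrays were normalized together is not stated, and the regimens lie on different scales. The 30559 deposited probesets were analysed here in R 4.3.3 with limma 3.58.1. Gene symbols came from the platform annotation (16789 probesets with 1 symbol, 343 with several, 13427 with none). One value of L4 at baseline was missing, so fits with it tested 30558 probesets.

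Each regimen was fitted alone with horse as a block, with two-sided tests and the Benjamini-Hochberg adjustment over all probesets. A probeset with adjusted p under 0.05 was called. Titles name the horse of each array, which gives the pairing. Same-horse deviations from the group means correlated at 0.42 to 0.70 in the low dose horses and at -0.02 to 0.12 in the escalating dose horses. For L1, L3, L4, E3 and E4 the later array of another horse correlated higher than the horse's own. Such values reached 0.62 at the low dose (L3) and 0.11 at the escalating dose (E3), so the pairing rests on the titles. No arrays were identical.

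The members and lists were chosen with earlier results of these data known. Named genes were the members, shared probesets, other myosin heavy chains, the genes with the lowest escalating dose p in each list (at most 4), and the nearest genes. The genes MYBPC1 and MYBPC2 stood in 2 lists. Where a single probeset carried the symbol it stood for the gene, otherwise the one with the highest mean. Alternatives were a filter on dim probesets, quantile normalization, median centring, cyclic loess, trended and robust priors, array weights, no block, the methods' paired and unpaired tests, a fit of 18 arrays, single-symbol probesets, and leaving out horses. Arrays give no counts, and their number limits the precision.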

Additional observations from a re-analysis of the deposited data

Results flagged for a closer look

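A gap test within groups of 4 or 5 horses was run on 54 groups of member and shared probeset values, and 7 had 1 horse apart from the rest, where chance gives about 1 in 20. The MYH7 change of L4 at the low dose was 0.50 (others -0.60 to -0.40). On day 14, L5 had MYH3 at 3.94 (others 2.14 to 2.28) and MYH8 at 2.77 (others 1.75 to 1.97), and its MYH8 change was 0.86 (others -0.08 to 0.16). At the escalating dose, MYH7B in E1 was at 4.12 on day 28 (others 4.47 to 4.52), MYH13 in E3 was at 3.35 at baseline (others 3.46 to 3.47), and the change of the MYH4/MYH2 probeset in E1 was -0.55 (others -0.16 to -0.09).

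The changes of the regimens differed, in the limma fit of 18 arrays, for MYH2 (-4.42, adjusted p = 3.68e-05), MYH15 (0.91, adjusted p = 0.00690), MYH9 (-1.14, adjusted p = 0.00810) and MYH11 (-1.28, adjusted p = 0.0212), each given as escalating minus low dose. Over all probesets 36.6% were called in this comparison. MYH15 was not called after median centring, quantile normalization or cyclic loess scaling. The differences of MYH9 and MYH11 were not run under the alternatives. The change of MYH7 minus that of MYH2 differed by 5.11 (exact permutation p = 0.00794).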

How the results depend on the processing

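MYH2 at the escalating dose was called under every alternative run, between -5.41 (without E2) and -3.79 (cyclic loess). Escalating dose calls among members were 2 to 4 of 7 with a horse left out and 1 of the 3 members that a filter on dim probesets kept. Low dose calls were 0 with any horse left out, and calls on the difference of the regimens 2 to 3. The change of MYH7 minus that of MYH2 was 5.09 to 5.69 (escalating), 0.0875 to 0.563 (low) and 4.78 to 5.39 (difference).

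With no replicate block the member calls were 3, 0 and 2 (escalating, low, difference), as with the block, and over all probesets 22.8% were called in the difference, against 36.6% with it. The methods' paired test of each probeset alone called 27.5% of all probesets at the escalating dose, and did not call MYH8 (adjusted p = 0.104), MYLK2, MYL3, CSRP3, CHRNA1, VIM, MYHC-ALPHA, MYH10 or MYH11. It called 12 of the 28 fiber type regulators lower, against 21. Leaving out L4 and L5 gave 15 higher and 163 lower calls over all probesets at the low dose, none of them a member.

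Directions turned only for values that were not called, except TPM1, MYLK2, VIM and MYL3. At the escalating dose, quantile normalization gave MYH13 -0.20 and MYL3 0.25. Median centring gave MYH13 -0.12 and MYH14 -0.12. Cyclic loess gave MYH13 -0.19, MYH1/MYH4/MYH2 0.25, TPM1 0.16, MYLK2 0.0147, MYL3 0.76 (adjusted p = 0.0120) and VIM 0.0375. MYH7B was at 0.0367 without E1 and 0.10 without E1 and E4. At the low dose MYH7B was at 0.0107 (quantile) and from -0.328 (without L5) to 0.0825 (without L2), MYH13 at -0.0384 (array weights), from -0.0475 (without L5) to 0.188 (without L1), and at -0.15 (without L4 and L5), MYH15 from -0.0025 (without L5) to 0.175 (without L1) and MYH4/MYH2 at 0.02 (without L4 and L5). For the difference of the regimens MYH7B was at -0.31 (centring), -0.35 (quantile), -0.0267 (without E3) and from -0.14 (without L2) to 0.268 (without L5), and MYH13 at -0.23 (centring), -0.32 (quantile) and -0.43 (loess). The mean over several probesets of a gene could not differ, since each member had 1. The cause of these moves was not tested. Dim probesets such as MYH8 and MYH4/MYH2 lay well under the median of the escalating dose arrays, and the number of horses limits the precision.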
